A study of Mus musculus with 4 samples.

Results

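The genes described here are 8 transcription factors of mesenchymal cells: Twist1 and Twist2, Snai1 and Snai2, Zeb1 and Zeb2, and Prrx1 and Prrx2. They were chosen by symbol, as 8 of the 24063 gene symbols in the tables, and for each the transcript that drew the largest number of counts in the 4 libraries together was read. All 8 passed the filter on low counts and were among the 16208 genes tested. Lung ECs from C57BL6J mice, 8 weeks old and male by their labels, were isolated with magnetic beads carrying an antibody to CD31. The cells were taken 7 days after removal of the left lung (pneumonectomy, PNX) or after a sham operation, in which the chest was opened and both lungs stayed in place. There were 2 libraries per group, and each library held the pooled cells of 2 mice, so the spread between libraries is that between pools. The labels name no transgene or drug in either group and set the groups apart by the operation, with no day given for sham. Per the paper's methods, the surgery was done under ketamine and xylazine, with meloxicam as an analgesic afterwards.

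Twist1 and Twist2 are basic helix-loop-helix proteins that bind the E-box, CANNTG, as dimers with E proteins. Snai1 (Snail) and Snai2 (Slug) are zinc finger repressors of the same family of sites, and Zeb1 and Zeb2 bind paired E-boxes through zinc finger clusters at either end of the protein. These factors are known for repressing epithelial junction genes when cells become mesenchymal, and in endothelium for the related loss of junctions during sprouting and valve formation. Prrx1 and Prrx2 are homeodomain proteins of limb, craniofacial and connective tissue mesenchyme, and Prrx1 also marks fibroblasts of adult organs.

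The libraries held between 41367438 and 50952879 counts with 1 transcript per gene, and 3 counts, the floor used here, came to between 0.0589 and 0.0725 CPM (counts scaled to library total, counting error only). The defining endothelial markers were high. Pecam1, which encodes CD31, had between 90193 and 91118 normalized counts in the 4 libraries. Markers of other cells were high as well. The terms sham ECs and post-PNX ECs thus name the isolated cells as a whole. A level given for them is not that of endothelial cells alone. Sftpc, the surfactant protein of alveolar type 2 cells, had 171276 and 170761 normalized counts in sham and 111406 and 110654 after PNX, and Lyz2, of macrophages and type 2 cells, had between 144481 and 167189. Normalized counts are TMM-adjusted counts at the mean library size. The tables went against the label of sex, since all 44 chromosome Y genes had 0 counts in every library and Xist had between 29890 and 36875 counts.

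Of the 8 factors, 3 were called higher after PNX and 0 lower (1 lower at an unadjusted p under 0.05). A call needed a change of more than 1 on the log2 scale together with a Benjamini-Hochberg p under 0.01 in the quasi-likelihood test of edgeR. The 3 were Twist1, Prrx2 and Snai1, with fold changes of 12.2, 5.69 and 2.04. Of all genes tested, 5.9% were called higher and 1.66% lower, 7.56% in all. DESeq2's Wald test also called 3 of the factors higher and 0 lower. Without the threshold on size, 5 of the 8 were higher and 1, Zeb1, was lower, where 57.1% of all genes passed, 29.3% higher and 27.8% lower. The median log2 fold change of the 8 was 0.71, beside 0.00 over all genes tested. The 2 libraries of a group did not overlap with those of the other in any of the 8, which was also so in 81.2% of all genes. An exact permutation test of 1 gene over these 4 libraries cannot go below p = 0.333, so the p-values given are those of the edgeR fit across all genes.

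**Figure D1:**
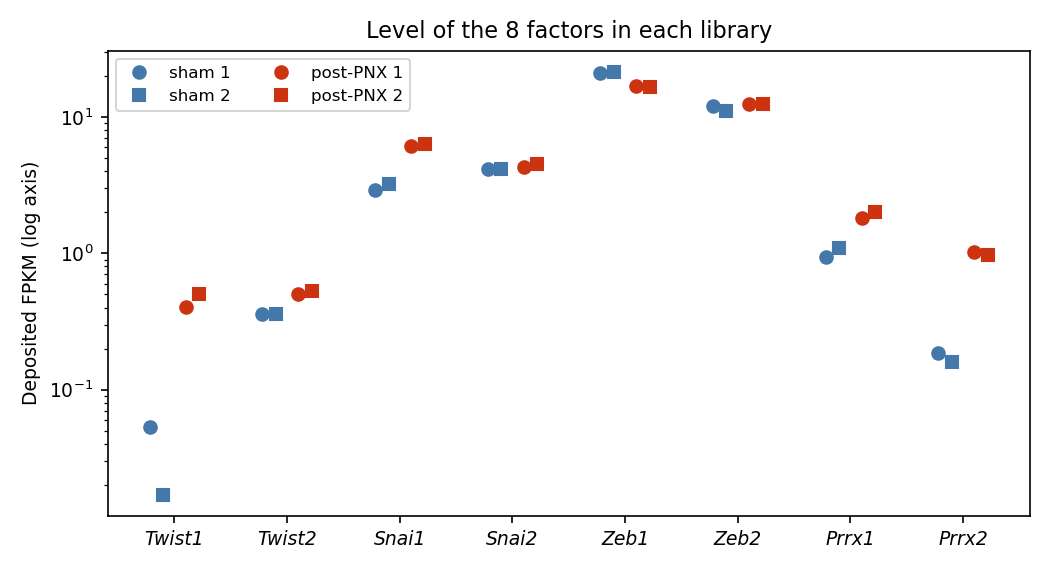
Level of each factor in every library, with sham libraries and post-PNX libraries as separate points. The log axis shows the deposited FPKM (counts scaled to transcript length and library total). The Zeb genes lie between 11.05 and 21.41 in all 4 libraries. The Twist1 points move from 0.0528 and 0.0170 in sham to 0.404 and 0.504 after PNX.

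The scaling to endothelial markers bears on all of these values. With 12 endothelial marker genes as the scale, and not TMM, the median of all genes rose by 0.26 on the log2 scale, and each factor was shifted with it. The log2 fold changes then were 3.86 for Twist1, 0.78 for Twist2, 1.29 for Snai1, 0.34 for Snai2, -0.09 for Zeb1, 0.37 for Zeb2, 1.16 for Prrx1 and 2.77 for Prrx2. No factor changed direction, and Prrx1 became the 4th to be called. Twist2 and Snai2 then also passed an adjusted p of 0.01 without a threshold on size, with 0.0035 and 3.9e-05 in edgeR's test. Of all called genes, 78.1% were higher under TMM and 94.1% under this scale. In these bulk libraries, fewer cells of a type and less RNA per cell cannot be told apart.

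Twist1, which drives mesoderm and cranial mesenchyme formation, lies on chromosome 12 from 33957671 to 33959831 on the plus strand (RefSeq, GRCm38.p6). Its counts were 7 and 2 in sham ECs, and 49 and 54 in post-PNX ECs. In normalized counts these were 6.34 and 2.04 in sham and 48.2 and 60.2 after PNX, so both post-PNX libraries lay far above both sham libraries. The mean went from 4.19 ± 3.04 in sham ECs to 54.2 ± 8.50 in post-PNX ECs (mean ± SD, n = 2 in each), which is a log2 fold change of 3.60 (standard error, SE, of 0.39, edgeR adjusted p = 1.7e-12). Of all genes tested, 0.432% had a higher log2 fold change, and 99.6% had a higher level in sham ECs. The ratio of the counts themselves, 103 after PNX against 9 in sham, was 12.5 per library total, within a range of 6.33 to 28.1 (exact binomial 95% interval on the ratio of the rates, counting error only). Without sham library 1 the fold was 24.9, resting on the 2 counts of the other sham library, and without sham library 2 it was 8.34. Even after PNX its level per length was the lowest of the 8, with 0.404 and 0.504 FPKM (counts scaled to transcript length and library total).

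Twist2, the paralog known for its role in dermal and bone mesenchyme, lies on chromosome 1 from 91801461 to 91848034. It had 38 and 34 counts in sham and 49 and 46 after PNX. Normalized, these were 34.4 and 34.7 in sham and 48.2 and 51.3 after PNX, and the groups did not overlap. The mean went from 34.5 ± 0.166 in sham ECs to 49.7 ± 2.20 in post-PNX ECs (mean ± SD, n = 2 in each), which is a log2 fold change of 0.52 (SE 0.24) that missed the threshold with an adjusted p of 0.047 in edgeR's test. The counts, 95 against 72, gave a ratio of 1.44 with a counting interval of 1.05 to 1.98, and the depth could not resolve a change of this size well. The genomic span of Twist2 overlaps the antisense gene Gm29100 in GENCODE.

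Within the pair, the FPKM of Twist1 was 0.148 and 0.0474 times that of Twist2 in the sham libraries and 0.805 and 0.945 times after PNX. Twist2 thus stayed the higher of the pair in each of the 4 libraries, and the distance between them was smaller in both post-PNX libraries.

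Snai1 lies on chromosome 2 from 167538195 to 167542814 on the plus strand, and its product is a short-lived protein whose stability is set by phosphorylation and ubiquitin ligases. It had 373 and 366 counts in sham and 724 and 661 after PNX. The normalized counts were 337.9 and 373.1 in sham and 711.4 and 736.5 after PNX, with no overlap of the groups. The mean went from 355.5 ± 24.9 in sham ECs to 724 ± 17.7 in post-PNX ECs (mean ± SD, n = 2 in each), which is a log2 fold change of 1.03 (SE 0.071, edgeR adjusted p = 4.7e-20). The rise itself was many standard errors from 0, but its size lay at the threshold of 1. Without sham library 1 it was 0.96, with an adjusted p of 1.6e-13, and no longer counted as called. The glmTreat test of edgeR, which asks whether the change exceeds a log2 of 1, gave an adjusted p of 1.

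Snai2, on chromosome 16 from 14705852 to 14709395, is the family member best known from neural crest and from sprouting endothelium. It had 681 and 603 counts in sham and 646 and 595 after PNX. Normalization gave 616.9 and 614.7 in sham and 634.8 and 663.0 after PNX. The log2 fold change of 0.07 (SE 0.063) did not pass edgeR's test, with an adjusted p of 0.305, although the groups did not overlap. The FPKM of Snai1 was 0.695 and 0.770 times that of Snai2 in sham and 1.42 and 1.41 times after PNX, so the order of the pair was turned in both post-PNX libraries.

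**Figure D2:**
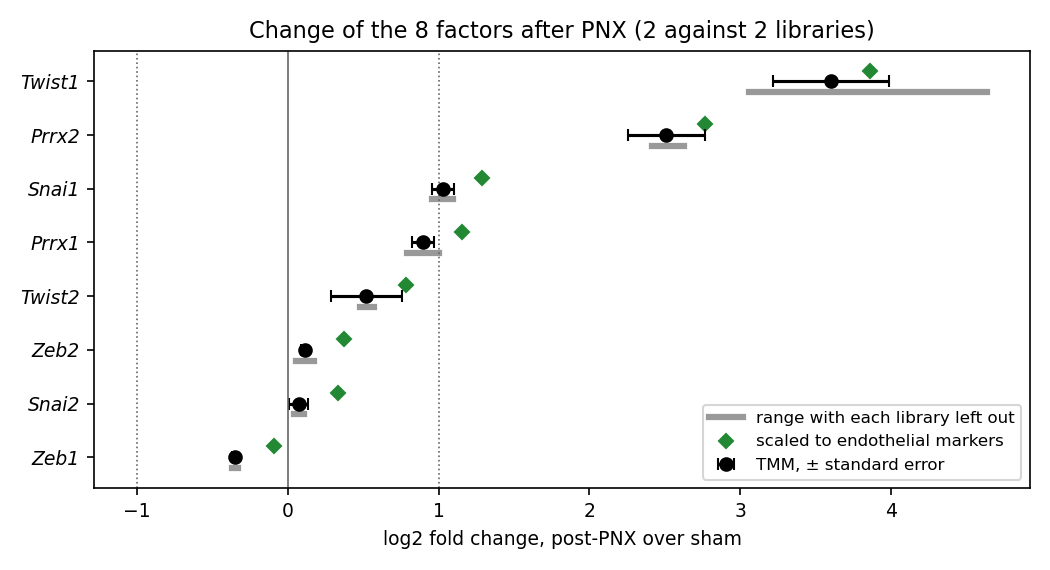
Log2 fold change of each factor, post-PNX over sham, with bars of 1 standard error from the edgeR fit and dashed lines at the threshold of 1 in either direction. Twist1 at 3.60 and Prrx2 at 2.51 lie clear of the line, Snai1 at 1.03 and Prrx1 at 0.90 lie on either side of it, and Zeb1 at -0.35 is the only one below 0.

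Zeb1 and Zeb2 were the abundant members. Zeb1, on chromosome 18 from 5591327 to 5775468, drew 9865 and 8976 counts in sham and 7244 and 6343 after PNX. After normalization there were 8937 and 9150 in sham and 7118 and 7068 after PNX, and both post-PNX libraries were lower than both sham libraries. Zeb1 went from 9044 ± 151 in sham ECs to 7093 ± 35.9 in post-PNX ECs (mean ± SD, n = 2 in each), which is a log2 fold change of -0.35 (SE 0.023, edgeR adjusted p = 6.8e-21). This was a fall of 21.5% under TMM, and a log2 fold change of -0.09 with an adjusted p of 0.0016 under the scaling to endothelial markers. Its change was thus small, and its size depended on the scaling, which the standard error does not cover. The gene is also expressed in T cells, whose 6 markers were all lower after PNX in the same test, and their part in the Zeb1 level was not tested. It overlaps the antisense gene Gm10125 in the same GENCODE annotation.

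Zeb2, on chromosome 2 from 44983512 to 45117442, is expressed in endothelium and also in macrophages and natural killer cells. It had 8987 and 7370 counts in sham and 8600 and 7603 after PNX. The normalized counts were 8142 and 7513 in sham and 8451 and 8472 after PNX, so the sham libraries differed from each other by more than the nearest libraries of the groups did. The log2 fold change was 0.11 (SE 0.025, edgeR adjusted p = 1.0e-04). Without sham library 2 it was 0.06, and the adjusted p of 0.0565 no longer passed the threshold.

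The tables hold a pair of Zeb2 transcripts. The one not used had between 97.1% and 97.7% of the counts of the one used, and FPKM rose 1.09-fold in both. Zeb2os, the antisense RNA of the locus, had 309.8 and 377.2 normalized counts in sham and 374.4 and 437.9 after PNX, which overlap, and its log2 fold change of 0.24 (SE 0.088) had an adjusted p of 0.013 in edgeR's test. The strand setting of the counting is not given in the sources used here, so reads of Zeb2 and Zeb2os cannot be told apart in these tables. The FPKM of Zeb1 was 1.75 and 1.94 times that of Zeb2 in sham and 1.34 and 1.33 times after PNX.

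Prrx1, on chromosome 1 from 163245119 to 163315145, is known from limb bud mesenchyme and fibroblast lineages. It drew 381 and 392 counts in sham and 665 and 657 after PNX. The normalized counts were 345.2 and 399.6 in sham and 653.5 and 732.1 after PNX, and the groups lay apart. Prrx1 went from 372.4 ± 38.5 in sham ECs to 692.8 ± 55.6 in post-PNX ECs (mean ± SD, n = 2 in each), which is a log2 fold change of 0.90 (SE 0.074, edgeR adjusted p = 9.3e-17) that fell short of the threshold on size. Without sham library 2 the log2 fold change was 1.00 and past it. Of its 3 transcripts, the shortest held between 50.3% and 56.7% of the counts of the one used, and the FPKM of the 3 rose between 1.87-fold and 1.91-fold.

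Prrx2, on chromosome 2 from 30845064 to 30881251, is known from fetal mesenchyme and from developing vessel walls. It had 17 and 13 counts in sham and 86 and 72 after PNX. Scaled to library size, there were 15.4 and 13.3 in sham and 84.5 and 80.2 after PNX. Both post-PNX libraries were thus several times higher than either sham library. The mean went from 14.3 ± 1.52 in sham ECs to 82.4 ± 3.03 in post-PNX ECs (mean ± SD, n = 2 in each), which is a log2 fold change of 2.51 (SE 0.26, edgeR adjusted p = 3.3e-13), and 1.51% of all genes had a higher one. The counts, 158 against 30, gave a ratio of 5.75 with a counting interval of 3.87 to 8.80. The FPKM of Prrx2 was 0.196 and 0.146 times that of Prrx1 in sham and 0.569 and 0.482 times after PNX.

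Per length, the order of the mean FPKM in sham ECs was Zeb1, Zeb2, Snai2, Snai1, Prrx1, Twist2, Prrx2 and Twist1, from 21.2 ± 0.360 (SD, n = 2) down to 0.0349 ± 0.0253 (SD, n = 2). After PNX the order was Zeb1, Zeb2, Snai1, Snai2, Prrx1, Prrx2, Twist2 and Twist1, from 16.7 ± 0.114 (SD, n = 2) to 0.454 ± 0.0704 (SD, n = 2). In this second order Twist2 and Twist1 had neighbouring ranges, with 0.502 and 0.533 FPKM for Twist2 and an overlapping 0.404 and 0.504 for Twist1. All other neighbours in both orders were apart in each library of the group. The FPKM summed over the 8 came to 41.5 and 41.5 in sham and 43.5 and 44.0 after PNX, and its makeup shifted. The Zeb pair held 79.3% and 78.3% of the sum in sham and 67.4% and 66.2% after PNX. Snai1 went from 6.98% and 7.71% to 14.1% and 14.4%, while Snai2 held between 9.93% and 10.2% in all 4 libraries.

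**Figure D3:**
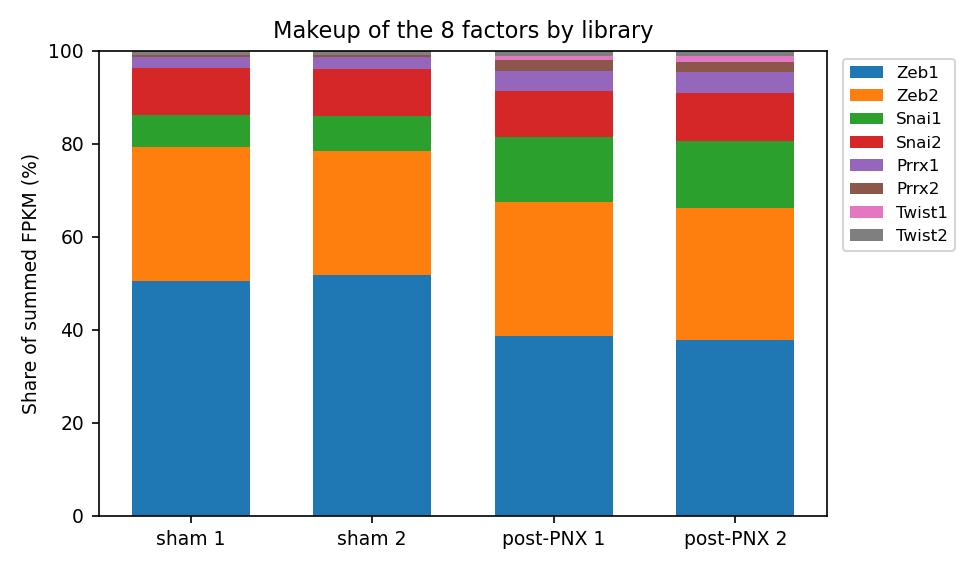
Share of each factor, in percent, in the FPKM summed over the 8 factors, with 1 bar per library. Zeb1 holds 50.4% and 51.7% of the sham bars and 38.6% and 37.8% of the post-PNX bars, and the shares of Snai1, Prrx1, Prrx2, Twist1 and Twist2 are larger in both post-PNX libraries.

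The promoters of the 3 factors called higher are shown because these genes rose in the same comparison, and E-box factors are known to act on one another's promoters. Each is the RefSeq promoter window of GRCm38.p6, with 250 bases before the start and 50 after it, and 6 of the 8 factors had an entry. Capitals mark matches to CANNTG, which reads the same on both strands. The windows are Twist1 at chr12:33957421-33957720, Prrx2 at chr2:30845117-30845416 and Snai1 at chr2:167537945-167538244, all on the plus strand. The Prrx2 window lies inside the gene span given above, which begins at 30845064. Its start is thus a later one, and the bases before that gene start were not searched.
Twist1: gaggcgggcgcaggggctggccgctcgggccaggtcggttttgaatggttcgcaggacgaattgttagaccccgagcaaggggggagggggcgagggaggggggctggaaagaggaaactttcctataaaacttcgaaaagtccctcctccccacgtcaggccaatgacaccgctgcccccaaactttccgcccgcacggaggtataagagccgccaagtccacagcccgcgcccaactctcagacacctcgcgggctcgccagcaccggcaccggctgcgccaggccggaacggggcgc
Prrx2: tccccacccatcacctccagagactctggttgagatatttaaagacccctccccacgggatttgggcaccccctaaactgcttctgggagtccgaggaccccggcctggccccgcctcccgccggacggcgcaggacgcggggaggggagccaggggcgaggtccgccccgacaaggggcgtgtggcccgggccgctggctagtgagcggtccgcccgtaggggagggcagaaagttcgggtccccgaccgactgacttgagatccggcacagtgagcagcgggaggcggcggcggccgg
Snai1: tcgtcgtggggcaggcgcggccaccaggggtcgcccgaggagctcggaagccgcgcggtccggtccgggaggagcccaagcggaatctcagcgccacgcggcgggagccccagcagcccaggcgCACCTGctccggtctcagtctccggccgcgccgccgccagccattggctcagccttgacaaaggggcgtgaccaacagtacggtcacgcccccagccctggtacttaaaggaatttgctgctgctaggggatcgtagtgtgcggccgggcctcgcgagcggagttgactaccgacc
The Snai1 window held 1 match, CACCTG, beginning at position -126 from the start. It is the Snail and Zeb form of the E-box, searched as CAGGTG on both strands. The windows of Twist1 and Prrx2 held 0 matches to CANNTG, where 72.3% of 32851 promoters of the same length held at least 1 and 20.2% held CAGGTG on either strand. Those of Twist2 and Prrx1 and each window of Zeb2, factors that were not called, also held 0 matches to CANNTG. The 3 windows were rich in G and C, with 66.0% in Twist1, 70.3% in Prrx2 and 70.0% in Snai1, beside a median of 52.7% over all promoters. Zeb1 and Snai2 are not in the promoter table. A match is a description of letters, and these data hold no measurement of binding.

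For each called factor, the genes with the nearest pattern were found by the Euclidean distance of log2 normalized counts over the 4 libraries, a measure that takes in both level and change. For Twist1 they were AI427809 at a distance of 0.43, with a log2 fold change of 3.19, and Mir5134 at 0.75, with 3.03. For Snai1 they were Mthfd2, an enzyme of mitochondrial folate metabolism, at 0.15 and Islr, a secreted protein of mesenchymal stromal cells, also at 0.15. Their log2 fold changes were 1.10 and 1.10. For Prrx2 they were Mir1906-1 and Mir1906-2 at 0.19, with identical counts in every library, so these near-identical copies are uncertain.

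Of 14 listed relatives of the same families, 6 passed the filter. None of the 6 passed edgeR's test in either direction, 0 at an unadjusted p under 0.05 and 0 with DESeq2. Tcf21, the bHLH factor of lung fibroblasts, had 2968 and 3093 normalized counts in sham and 2970 and 3163 after PNX, and so stayed within a narrow range. Scx, the bHLH factor of tendon, had 101.5 and 109.1 in sham and 109.1 and 134.8 after PNX. Of 7 dimer partners and inhibitors of the Twist proteins, 1 was higher at an adjusted p under 0.01 whatever its size (Id2, an inhibitor of E proteins, log2 fold change 0.22) and 1 lower (Tcf4, an E protein, -0.10), where 57.1% of all genes passed in either direction. The median of these 7 was -0.01, beside 0.00 over all genes.

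Among 17 corepressors and chromatin partners, 6 were higher and 6 lower at an adjusted p under 0.01 in edgeR's test and 3 and 3 in DESeq2's, with a median of 0.05, and 1, Ezh2, was called higher. Ezh2, the methyltransferase of a Polycomb repressive complex, had 662.2 and 682.0 normalized counts in sham and 1554 and 1622 after PNX, which is a log2 fold change of 1.24 (SE 0.050, edgeR adjusted p = 3.7e-31). It is also known to rise in dividing cells, and all 8 genes of a cell division list were called higher here, with a median of 3.07. The part of dividing cells in the result was not tested. Of 17 genes that act on the stability of the Snail and Twist proteins, 3 were higher and 7 lower at an adjusted p under 0.01 (3 and 4 with DESeq2), and 1, Loxl2, was called higher. Loxl2, a lysyl oxidase that also binds Snai1 protein, rose from 1806 and 1884 normalized counts to 4622 and 4699, which is a log2 fold change of 1.34 (SE 0.032, edgeR adjusted p = 5.7e-43). Lats2, the Hippo kinase with the most counts in this list, had a log2 fold change of -0.30. In both the corepressor and the stability list 5.88% were called, beside 7.56% of all genes. At an adjusted p under 0.01 in edgeR's test, 57.1% of all genes passed, 29.3% higher and 27.8% lower.

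Of 25 ligands, receptors and factors known to act upstream, 12 were higher and 8 lower at an adjusted p under 0.01 (10 and 7 with DESeq2), with a median of 0.05. The 3 called higher were Hmga2, Wnt5a and Bmp2, and the 1 called lower was Lef1, a mediator of Wnt signals, at -1.04. DESeq2 called 2 higher and 1 lower. In edgeR's test 7.56% of all genes were called, and 57.1% passed an adjusted p of 0.01 whatever the size, 29.3% higher and 27.8% lower. Wnt5a, a Wnt ligand of mesenchyme, rose from 425.8 and 403.7 normalized counts to 1101 and 1126. Bmp2, a ligand that induces Snai and Twist genes in heart cushions, rose from 240.1 and 265.0 to 512.9 and 502.5. Hmga2, a chromatin protein that acts on Snai1 and Twist1, was near the floor, with 1.81 and 7.14 in sham and 12.8 and 16.7 after PNX. The log2 fold changes of the TGF-beta ligands, chosen after their values were seen, were 0.33 for Tgfb1, 0.58 for Tgfb2 and 0.70 for Tgfb3, each higher at an adjusted p under 0.01 in edgeR's test. Epas1, the hypoxia factor HIF-2 alpha of endothelium, had the most counts, and it was lower after PNX with a log2 fold change of -0.60. Under the scaling to endothelial markers no gene of this list was called lower.

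The genes on which these factors are known to act were described in both directions. Of 19 mesenchymal genes of the target list, 9 were called higher and 0 lower in edgeR's test, with 0 lower in DESeq2's. Whatever the size, 17 were higher and 1 lower at an adjusted p under 0.01 (2 lower at an unadjusted p under 0.05), and the median log2 fold change was 1.00. Tnc, a matrix glycoprotein, rose from 1409 and 1518 normalized counts to 8766 and 8728. Fn1, fibronectin, rose from 26988 and 27255 to 125384 and 126919, which is a log2 fold change of 2.22 (SE 0.017, edgeR adjusted p = 1.5e-70). Both genes were thus several times higher in each post-PNX library. Vim, the intermediate filament of mesenchymal and endothelial cells, had a log2 fold change of 0.84. The 1 lower gene was Pdgfra at -0.23, named with its value known. The list shares 4 genes with the fibroblast markers and 2 with the markers of pericytes and smooth muscle. Of the list 47.4% was called, beside 7.56% of all genes. Whatever the size, 29.3% of all genes were higher and 27.8% lower at an adjusted p under 0.01 in edgeR's test.

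Of 12 tested epithelial genes that the factors are known to repress, 2 were higher and 8 lower at an adjusted p under 0.01 (1 and 8 with DESeq2). None was called past a log2 of 1 by edgeR or DESeq2, and 3 higher and 8 lower had an unadjusted p under 0.05. Cdh1, E-cadherin, had 6053 and 6171 normalized counts in sham and 5155 and 5150 after PNX, which is a log2 fold change of -0.25. Krt19, a keratin of epithelium and mesothelium, had 4317 and 4329 in sham and 4985 and 5217 after PNX, which is a log2 fold change of 0.24. The pair moved in opposite directions, each at an adjusted p under 0.01 in edgeR's test. Of 10 tested factors known to oppose the mesenchymal state, 6 were lower and 0 higher at an adjusted p under 0.01 (7 lower and 0 higher at an unadjusted p under 0.05, 5 lower and 0 higher with DESeq2). Foxa1, a forkhead factor of airway epithelium, was called lower, from 636.9 and 590.2 to 302.7 and 303.1. These epithelial genes moved beside the epithelial markers, of which 9 of 11 were lower, with a median of -0.55 and a summed level of 433070 and 435423 in sham and 265831 and 262868 after PNX. The repressed genes share 4 members with these markers (Cdh1, Epcam, Krt18 and Krt8), so the lists are not separate. The part of those cells in the result was not tested. Over all genes, 29.3% were higher and 27.8% lower at an adjusted p under 0.01 in edgeR's test, and 7.56% were called.

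**Figure D4:**
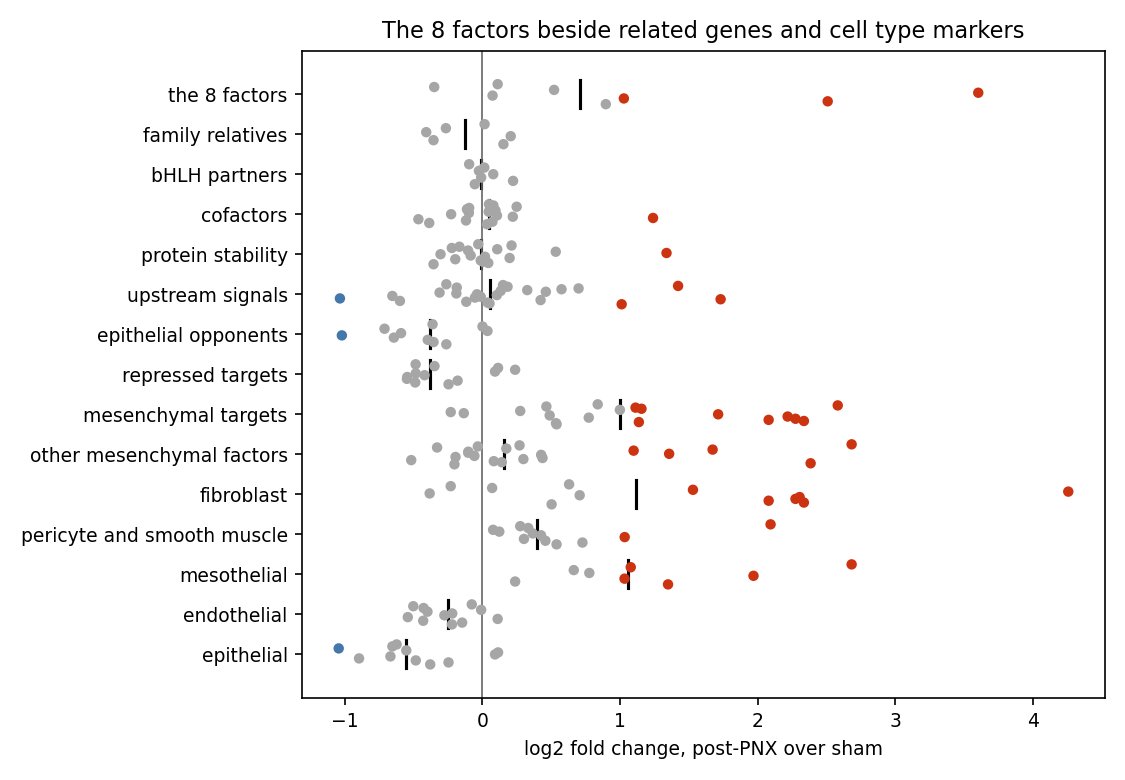
Log2 fold change, post-PNX over sham, of the factors and of each tested gene in the context lists and some of the marker lists. The marker lists shown are fibroblast, pericyte and smooth muscle, mesothelial, endothelial and epithelial. Each gene is 1 point, red where called higher and blue where called lower, and a bar marks the median of each list. The medians of the mesenchymal targets (1.00) and fibroblast markers (1.12) lie to the right of 0, and those of the repressed targets (-0.38) and epithelial markers (-0.55) to the left.

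Of 20 other tested factors of mesenchymal lineages, 5 were called higher and 9 were higher and 5 lower at an adjusted p under 0.01 (9 and 2 with DESeq2), with a median of 0.16. Among all genes tested, 7.56% were called, and 57.1% passed an adjusted p of 0.01 in edgeR's test, 29.3% higher and 27.8% lower. Wt1, the factor of mesothelium, rose from 145.0 and 163.1 normalized counts to 975.8 and 998.4, which is a log2 fold change of 2.68. Ebf2, of preadipocytes and other mesenchyme, had 9.97 and 4.08 in sham and 42.3 and 33.4 after PNX. Tbx18, of mesothelium and mural cells, rose from 38.1 and 35.7 to 112.0 and 124.8. Osr1, of mesodermal progenitors, rose from 198.4 and 212.0 to 509.0 and 542.6. Foxf1, the forkhead factor of lung endothelium and mesenchyme, had the most counts and fell from 29968 and 30378 to 20748 and 21430. Tbx2, a T-box factor of lung mesenchyme and the next in counts, rose from 14024 and 14919 to 16058 and 16580. The 5 factors called were thus among those of lower level in sham, while smaller changes went both ways among the abundant ones.

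Most listed markers of mesenchymal cells were higher after PNX, while of the 8 factors 5 were higher and 1 lower at an adjusted p under 0.01. Of 12 fibroblast markers, 6 were called higher and 10 were higher and 2 lower at an adjusted p under 0.01, with a median of 1.12 and a summed level of 115389 and 116252 normalized counts in sham and 281539 and 283119 after PNX. The largest change was that of Lum, lumican, from 72.5 and 43.8 to 1148 and 1110. Of 8 mesothelial markers, 5 were called and all 8 were higher, with a summed level of 12055 and 12202 in sham and 24993 and 25348 after PNX. Of 12 markers of pericytes and smooth muscle, 10 were higher, and their sum went from 22416 and 22661 to 29948 and 29847, led by Rgs5 of pericytes with a log2 fold change of 2.09. Of the 10 tested markers of macrophages and monocytes 9 were higher, with a sum of 168174 and 167301 in sham and 219023 and 218151 after PNX. The 6 markers of T cells were all lower, with a median of -0.82, and the 12 endothelial markers had a sum of 551926 and 557611 in sham and 462229 and 463904 after PNX, with 10 lower and 1 higher at an adjusted p under 0.01. The medians of the tested B cell, natural killer, neutrophil and adipocyte markers were -0.82, -0.11, 0.16 and 1.19. Beside these counts, 29.3% of all genes were higher and 27.8% lower at an adjusted p under 0.01 in edgeR's test, and 7.56% were called. No fibroblast, mesothelial or pericyte marker was at 0 in any library. The part of these cells in the levels of the 8 factors was not tested.

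Set against these sums, the factors separated. Per 10000 normalized counts of the 12 fibroblast markers, Twist1 was 5.29 times and Prrx2 2.36 times as high after PNX as in sham. Snai1 was 0.836 times, Prrx1 0.763 times, Twist2 0.590 times, Zeb2 0.443 times, Snai2 0.432 times and Zeb1 0.322 times as high. Snai1 and Prrx1 thus rose by less than the summed fibroblast markers, which rose 2.44-fold, and Twist1 and Prrx2 by more. Much of that sum comes from the collagen genes. Without Col1a1, Col1a2 and Col3a1, a choice made after the values were seen, the sum of the other 9 markers rose 1.19-fold, and Snai1 and Prrx1 were 1.71 and 1.56 times as high per marker count. Twist1 and Prrx2 were then 10.8 and 4.82 times as high. Of this sum in sham, 84.5% came from Npnt, Itga8 and Pdgfra, which together went from 63010 and 62788 normalized counts to 59072 and 58993. The other 6 markers (Dcn, Lum, Dpt, Pi16, Mfap5 and Clec3b) rose 2.58-fold in sum, and per count of these Snai1 and Prrx1 were 0.791 and 0.722 times and Twist1 and Prrx2 4.98 and 2.23 times as high. The rises of Twist1 and Prrx2 were thus larger than that of each of these sums, while the ratios of Snai1 and Prrx1 fell on either side of 1 with the markers taken. Among the 12 markers singly, Lum rose 19.1-fold, beside 12.2-fold for Twist1 and 5.69-fold for Prrx2. The next marker, Col1a1, rose 5.05-fold. That lay below the counting interval of Twist1, 6.33 to 28.1, but within that of Prrx2, 3.87 to 8.80.

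Per 10000 counts of the 12 endothelial markers, Twist1 was 15.4 times, Prrx2 6.89 times, Snai1 2.44 times and Prrx1 2.23 times as high after PNX as in sham. Zeb1 was 0.940 times as high on this scale, with 161.9 and 164.1 counts per 10000 in sham and 154.0 and 152.4 after PNX. Zeb1 thus followed the summed endothelial markers more closely than any other of the 8, and its groups still did not overlap. Zeb2 was 1.30 times, Snai2 1.26 times and Twist2 1.72 times as high.

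**Figure D5:**
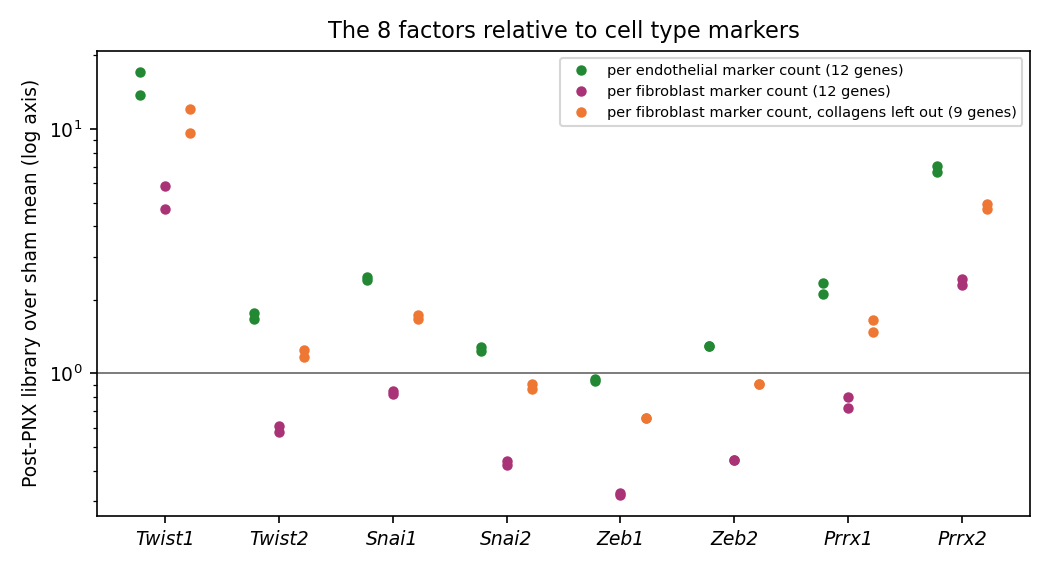
Ratio of post-PNX to sham of each factor per 10000 normalized counts of endothelial markers, of all 12 fibroblast markers and of the 9 without collagens, on a log axis. Twist1 and Prrx2 lie above 1 on all 3 scales, Snai1 and Prrx1 on either side of 1 depending on the scale, and Zeb1 below 1 on all 3.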

How the data were processed

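Per the paper's methods, RNA of bead-isolated ECs was made into stranded mRNA libraries. The submitters' processing notes name STAR and mm10, and the counting program and its version are not given in the sources used here. For each library the authors deposited whole-number counts, FPKM and TPM for 33068 RefSeq transcripts. Counts were used for the tests, the deposited FPKM for levels per length, and the deposited TPM values were not used. A read could be counted for several transcripts of a gene, so 1 transcript, that with the largest summed count, stood for each symbol. The filterByExpr function of edgeR 4.0.16 (R 4.3.3) chose the genes to test, TMM factors ran from 0.9985 to 1.0026, and groups were compared by the quasi-likelihood test without covariates, with Benjamini-Hochberg adjustment. Calls needed an adjusted p under 0.01 and more than 1 on the log2 scale. Standard errors are the log2 fold change divided by the square root of F. Log2 normalized counts used a prior count of 0.125.

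The 8 factors and the gene lists were chosen with earlier results of these data known. All 8 factors are described. From each list, at most 4 called genes by size of change and at most 2 with the most counts were named, from marker lists the 1 or 2 with the largest change, and for each called factor the 2 genes nearest in pattern. Id2, the TGF-beta ligands, Pecam1, Sftpc, Lyz2, Xist, Zeb2os and the fibroblast markers other than Lum were named outside this rule after their values were seen. The settings varied were the scaling (DESeq2 1.42.0 size factors, plain library size, 12 endothelial markers), the filter (none, or a mean of 50 counts), the test (Wald test, glmTreat), the replicate block, and counts summed over transcripts, other thresholds and each library left out in turn. Steps were tested on simulated counts. Replicates are pools of different mice, and intervals cover counting error only.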

Additional observations from a re-analysis of the deposited data

How the results depend on the processing

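No factor changed direction under any alternative. Scaling to endothelial markers gave 4 factors and 1329 genes called higher and 84 lower, with Prrx1 called at 1.16, and the share of called genes that were higher went from 78.1% to 94.1%. A mean of at least 50 counts left 1 called factor, Snai1, since Twist1, Twist2 and Prrx2 were not tested there, and gave 719 genes higher and 160 lower. The glmTreat test gave 604 genes higher and 39 lower and 2 factors, Twist1 and Prrx2, with Snai1 at 1.03 no longer called. Without a fold threshold 5 factors were higher and 1 lower, among 4745 and 4513 genes. With each library left out in turn, the log2 fold change was 3.06 to 4.64 for Twist1, 0.48 to 0.57 for Twist2, 0.96 to 1.10 for Snai1, 0.04 to 0.11 for Snai2, -0.37 to -0.33 for Zeb1, 0.06 to 0.17 for Zeb2, 0.79 to 1.00 for Prrx1 and 2.41 to 2.63 for Prrx2. Between 2 and 4 factors, 893 and 928 higher genes and 225 and 268 lower genes were then called. The cause of these changes was not tested beyond what each setting removes.

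Groups share replicate numbers but not mice, and the deviations of same-numbered libraries correlated at 0.0304. The replicate block called 957 genes higher and 272 lower and changed no call among the factors, with Twist1 at 3.60. Depth limits Twist1, Twist2 and Prrx2, which had between 2 and 38 counts in the sham libraries. With 2 pools per group, the p-values rest on counting error and on a spread between pools that the fit moderates across all genes. They do not measure the spread between mice.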
